A study of Mus musculus with 24 samples.

Results

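The receptor complex through which macrophages sense lipopolysaccharide (LPS), with the adaptors, kinases and ubiquitin ligase next to it, was described in RNA-seq libraries of RAW264.7 cells and bone marrow-derived macrophages (BMDMs). The 10 genes Tlr4, Cd14, Ly96, Cd180, Myd88, Ticam1, Ticam2, Irak4, Irak2 and Traf6 were taken by exact gene symbol, with no measured value used, from the 56691 genes in each of the 2 deposited tables. Each symbol was found once in both. RAW264.7 is a mouse macrophage-like leukemia line, and BMDMs were grown for 6 days from marrow of 8-week-old male mice. Both cell types were studied as wild type and as Olfml3 knockout, and cells of each kind received PBS or LPS (100 ng/mL) and were taken after 4 h, which made 8 groups of 3 libraries and 24 libraries in all.

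The RAW264.7 knockout was made with lentiviral sgRNA against Olfml3 and taken as a single-cell clone, while the BMDM knockout came from C57BL/6 Olfml3-/- mice made with CRISPR-Cas9. The study Sanger sequenced its RAW264.7 clones and describes those of its cell assays as knocked out at both alleles. Whether the RNA-seq libraries carry such edits was not tested here. The targeted gene was checked first. In BMDMs, Olfml3 was at 0.53 to 0.65 FPKM (fragment counts divided by gene length and library total) in the wild-type PBS libraries and at 0.01 to 0.03 in the knockout PBS libraries, and it was lower in the knockout with LPS too. In RAW264.7, Olfml3 went against the label, with 0.15 to 0.19 FPKM in the wild-type PBS libraries, 0.65 to 1.19 in the libraries labelled knockout with PBS and 18.3 to 18.9 in those labelled knockout with LPS. The RAW264.7 libraries titled knockout are therefore called "labelled knockout" throughout, and "wild type" in RAW264.7 is likewise only a label taken from the titles. The study calls its RNA-seq replicates biological, but no source used here says which libraries came from separate cultures or animals, so p-values measure only the spread between these libraries.

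Total counts ranged from 11638273 to 16478616 per RAW264.7 library and from 17121240 to 22873094 per BMDM library, and the 10 genes had 68 to 29344 counts each in the former and 236 to 22425 in the latter. One library stood apart: replicate 1 of the RAW264.7 group labelled knockout with PBS differed from replicates 2 and 3 with a chi-square over genes that was 80.3 and 81.1 times its degrees of freedom, where every other RAW264.7 replicate pair had 1.84 to 2.72. Where leaving out that library changed a limma call of the 10 genes, the value without it is given. In BMDMs the pairs of wild-type LPS libraries reached 4.76 to 10.4, and the other pairs 1.76 to 2.68. All 7 macrophage markers (Adgre1, Csf1r, Cd68, Itgam, Lyz2, Fcgr1 and Mertk) averaged at least 1 FPKM in every BMDM group, and 6 of 7 did in every RAW264.7 group, where Mertk was at 0. The summed markers of T cells, B cells, stroma and erythroid cells stayed at or under 1.73 FPKM in every library. Granulocyte markers summed to 5.29 to 8.43 FPKM in BMDMs, where only S100a8 and S100a9 of the 6 averaged at least 1 FPKM. NK cell markers summed to 4.1 to 4.3 in wild-type and 1.09 to 1.22 in knockout BMDMs with LPS. Of those 4 NK cell markers only Klrk1 averaged at least 1 FPKM, so these sums do not show NK cells. Log2 differences below are given ± SE.

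LPS is carried to the cell surface by CD14 and handed to MD-2 (encoded by Ly96), which sits on the receptor TLR4. The TLR4 and MD-2 pair dimerizes and signals from the plasma membrane through MyD88, which assembles the kinases IRAK4 and IRAK2 and the ubiquitin ligase TRAF6 and leads to NF-kappaB and inflammatory cytokines, and from endosomes through TRAM (Ticam2) and TRIF (Ticam1), which leads to type I interferon. CD180 (RP105) is a TLR4 relative with no signalling domain that pairs with MD-1 (Ly86), and in macrophages it is known to restrain TLR4 signalling. The study asked how macrophages without Olfml3 respond to LPS. The RNA level of the machinery that receives LPS was therefore compared in 2 ways, LPS against PBS and knockout against wild type.

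In BMDMs given LPS, RNA of Cd14, Ly96, Myd88 and Irak2 rose, and that of Tlr4 and Irak4 fell, in both genotypes. Protein was not measured in these libraries. On log2(FPKM + 0.1) with limma, 7 of the 10 genes were called in wild-type BMDMs (Cd14, Ly96, Myd88 and Irak2 higher, and Tlr4, Ticam2 and Irak4 lower), where a call is an adjusted p under 0.05 with a change of at least 1.5-fold. Over all 26973 genes tested, 7.94% were called higher and 32.5% lower in that comparison. In knockout BMDMs the same 4 genes were called higher and Tlr4 and Irak4 lower, where 8.02% of all genes were called higher and 30.9% lower. The median log2 fold change of the 10 genes was 0.14 in wild type and 0.43 in knockout, and that of all genes tested was -0.30 and -0.28. In wild-type RAW264.7 cells, 6 of 10 were called, with Cd14, Myd88, Ticam1 and Irak2 higher and Tlr4 and Ticam2 lower, while 5.80% of the 26740 genes tested were called higher and 12.5% lower. In the RAW264.7 libraries labelled knockout, 6 of 10 were called as well, with Cd14, Ticam1, Irak2 and Cd180 higher and Tlr4 and Irak4 lower, against 7.45% of all genes higher and 14.6% lower. The medians there were 0.24 and 0.45 for the 10 genes and -0.05 and -0.07 for all genes tested, and all 10 genes passed the filter on low values in both tables.

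The scale mattered for these LPS comparisons. FPKM divides by the library total, while edgeR scales by a trimmed mean over genes. Among genes with a mean of at least 1 FPKM, the median log2 change with LPS on the FPKM scale was -0.73 in wild-type and -0.62 in knockout BMDMs and -0.21 and -0.23 in the corresponding RAW264.7 groups. Scaled by the trimmed mean of M-values in edgeR, the medians were 0.03, 0.04, 0.01 and -0.03. Of all genes called, 19.7% were higher on FPKM and 44.8% by edgeR in wild-type BMDMs, and the shares were 20.6% and 44.7% in knockout BMDMs, 31.7% and 46.9% in wild-type RAW264.7, and 33.8% and 46.5% with the knockout label. Each LPS response is therefore given on both scales. By edgeR's quasi-likelihood test, 9 of the 10 genes were called in wild-type BMDMs (7 higher and 2 lower) against 25.1% of genes higher and 30.9% lower, and 8 in knockout BMDMs (7 higher and 1 lower) against 23.9% and 29.6%. In RAW264.7, edgeR called 6 of 10 in wild type (4 higher and 2 lower) against 14.6% and 16.6% of genes, and 7 of 10 in the libraries labelled knockout (6 higher and 1 lower) against 17.6% and 20.3%. As a check that LPS acted, Tnf rose 42.1-fold and 43.2-fold in mean FPKM in the RAW264.7 groups and 53.8-fold and 60.6-fold in the BMDM groups, and Il1b, Il6 and Nos2 were called higher in all 4 comparisons.

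**Figure D1:**
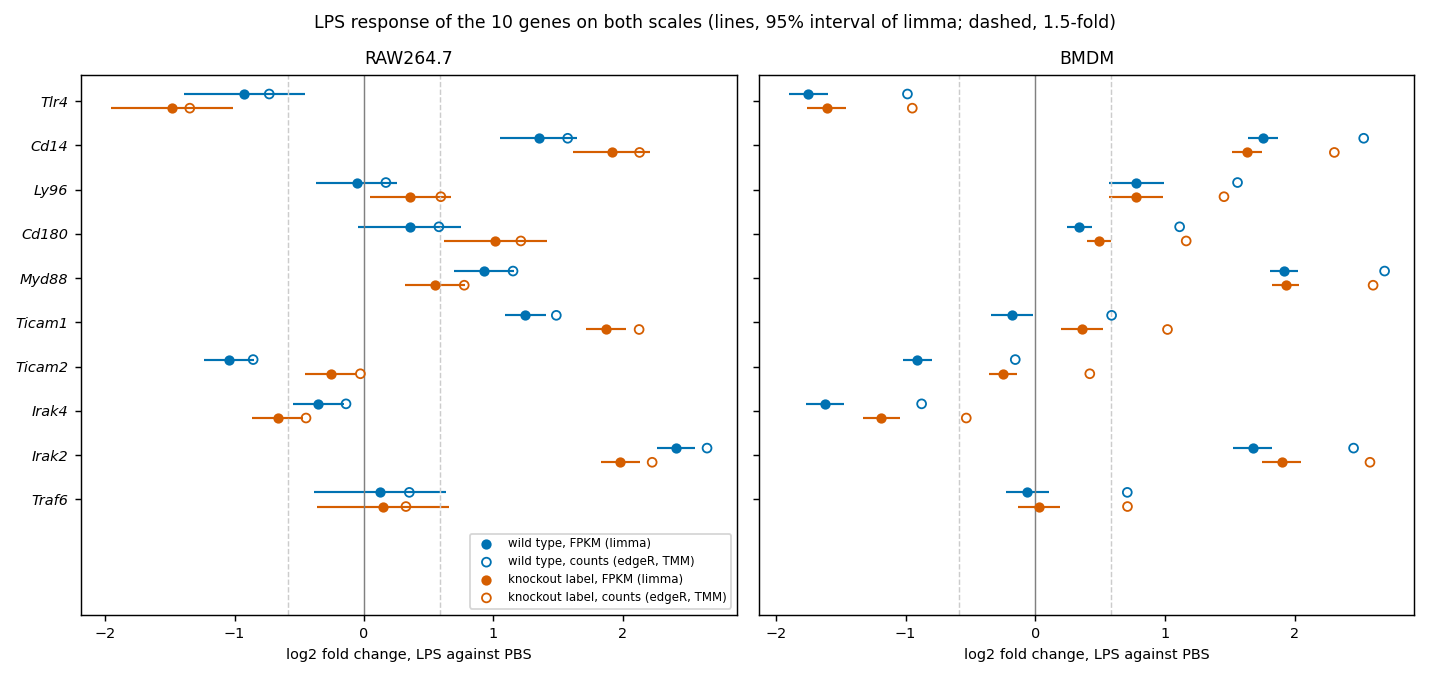
Log2 fold change of each of the 10 genes with LPS against PBS (horizontal axis) in RAW264.7 (left) and BMDMs (right), with filled points for log2(FPKM + 0.1) and its limma 95% interval and open points for edgeR with trimmed-mean scaling, 3 libraries per group. Tlr4 lay left of 0 and Cd14 and Irak2 right of it on both scales in all 4 comparisons, while in wild-type BMDMs Ticam1 and Traf6 lay left of 0 on the FPKM scale and right of it by edgeR.

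Tlr4 encodes the signalling receptor of the complex (chr4:66827584-66930284, plus strand of GRCm38). In wild-type BMDMs it was at 33.2, 33.4 and 33.7 FPKM with PBS and 8.8, 10.7 and 10.2 with LPS. In knockout BMDMs it was at 29.9, 29.8 and 29.4 and 9.81, 9.38 and 9.85. Tlr4 RNA thus fell in both genotypes and no PBS library overlapped an LPS library. The log2 fold change was -1.75 ± 0.07 (adjusted p = 8.28e-09) in wild type and -1.61 ± 0.07 (adjusted p = 1.77e-08) in knockout by limma, and -0.99 and -0.95 by edgeR. In RAW264.7 the level was much lower from the start, at 4.74, 4.13 and 5.27 FPKM in wild type with PBS and 2.6, 2.28 and 2.41 with LPS. In the libraries labelled knockout it was at 3.16, 5.94 and 5.53 with PBS and 1.48, 1.68 and 1.7 with LPS. It fell here too, with a log2 fold change of -0.92 ± 0.21 (adjusted p = 0.00885) in wild type and -1.48 ± 0.21 (adjusted p = 4.01e-04) in the libraries labelled knockout, where without the library that stood apart the value was -1.76.

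The fall of Tlr4 was called on both scales in all 4 comparisons (edgeR -0.73 and -1.35 in RAW264.7). Between genotypes the Tlr4 libraries overlapped in RAW264.7 with PBS and in BMDMs with LPS. With LPS in RAW264.7 all 3 libraries labelled knockout were below all 3 wild-type libraries, at a log2 difference of -0.56 ± 0.21 (adjusted p = 0.0828), which was not called by limma and was called by edgeR (-0.61, adjusted p = 0.0282), by DESeq2 (-0.60, adjusted p = 0.0225) and after quantile normalization (-0.76, adjusted p = 0.0132). With PBS in BMDMs the knockout libraries were lower, by a limma log2 difference whose 95% interval ran from -0.32 to -0.02 and which was not called (adjusted p = 0.262). A gene without a symbol (ENSMUSG00000121059) lies inside Tlr4 on the same strand and was counted separately. It ran from 20.6 to 23.8 FPKM in wild-type BMDMs with PBS and from 6.17 to 7.56 with LPS, and whether it took reads from Tlr4 was not tested.

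Ly96 encodes MD-2, the part of the complex that binds LPS (chr1:16688051-16709611, plus strand). In BMDMs it was at 12.4, 13.6 and 13.6 FPKM in wild type with PBS and at 24.9, 22.5 and 20.8 with LPS. In knockout BMDMs it was at 12.5, 10.6 and 13.02 and 19.5, 21.6 and 20.8. Ly96 rose in BMDMs of both genotypes with no overlap, by 0.78 ± 0.09 (adjusted p = 4.32e-05) and 0.78 ± 0.09 (adjusted p = 4.83e-05) on the log2 scale (edgeR 1.56 and 1.46), while the genotypes overlapped with either treatment.

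In RAW264.7 no rise of Ly96 was called by limma. Wild-type libraries were at 7.11, 7.16 and 8.27 FPKM with PBS and 6.89, 6.99 and 7.81 with LPS, with a log2 difference of -0.05 ± 0.14 (adjusted p = 0.915). Libraries labelled knockout were at 6.24, 5.13 and 4.65 and 8.08, 6.39 and 6.16, with an overlap and a difference of 0.36 ± 0.14 (adjusted p = 0.0887), which edgeR called (0.59, adjusted p = 0.00653). With PBS all 3 libraries labelled knockout were below the 3 wild-type libraries, at -0.49 ± 0.14 (adjusted p = 0.0495), under the 1.5-fold limit. Without the library that stood apart the difference was -0.61 (limma adjusted p = 0.00637) and was called.

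Cd14 encodes the surface protein that delivers LPS to the complex, and it had the highest mean FPKM of the 10 genes in all 8 groups, with a range that overlapped that of Cd180 in wild-type BMDMs with PBS. In BMDMs, Cd14 was at 162, 157 and 159.6 FPKM in wild type with PBS and 576, 522 and 523 with LPS. In knockout BMDMs, Cd14 was at 147, 147 and 155 and 465, 463 and 467. Every LPS library was above every PBS library, with a log2 rise of 1.76 ± 0.05 (adjusted p = 1.27e-09) in wild type and 1.64 ± 0.05 (adjusted p = 2.29e-09) in knockout (edgeR 2.53 and 2.31). The knockout BMDM libraries were below the wild-type ones with either treatment, but the log2 differences were -0.09 ± 0.05 (adjusted p = 0.492) with PBS and -0.21 ± 0.05 (adjusted p = 0.0163) with LPS, both under the 1.5-fold limit.

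Of the 10 genes, Cd14 differed most between the RAW264.7 labels with either treatment. Wild-type libraries were at 457, 448 and 429.8 FPKM with PBS and the libraries labelled knockout at 135, 90.4 and 96.7. With LPS they were at 1112, 1152 and 1143 and 397, 383 and 416. The libraries labelled knockout held less Cd14 with either treatment and did not overlap the wild type, at -2.07 ± 0.13 (adjusted p = 1.05e-05) with PBS and -1.51 ± 0.13 (adjusted p = 6.84e-05) with LPS on the log2 scale. Both differences were called by limma and by edgeR (-2.09 and -1.54), and with PBS the value was -2.25 without the library that stood apart, itself the highest of the 3. LPS raised Cd14 in both, by 1.35 ± 0.13 (adjusted p = 4.11e-05) and 1.92 ± 0.13 (adjusted p = 2.81e-06) (edgeR 1.58 and 2.13), so that the libraries labelled knockout with LPS stayed below the wild-type libraries with PBS. The summed level of the macrophage markers was also lower with the knockout label. With PBS it was 2914 to 2945 FPKM in wild type against 1054 to 1286 in the libraries labelled knockout. With LPS it was 2729 to 2870.1 against 829 to 862, below the PBS range of either label, while Cd14 rose. Of the 5 dendritic cell markers only Siglech reached 1 FPKM and 2 were at 0 in both PBS groups, and their sum was 1.08 to 1.36 in wild type against 8.66 to 10.12 FPKM with the knockout label. Their part in the difference was not tested, and in bulk RNA fewer cells of a kind cannot be told apart from less RNA per cell.

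Cd180 encodes the TLR4 relative RP105 (chr13:102693558-102739629, plus strand). In BMDMs, Cd180 was at 154, 161 and 157 FPKM in wild type with PBS and 193, 203 and 201 with LPS. In knockout BMDMs, Cd180 was at 133, 138 and 133 and 191, 189 and 189. All LPS libraries were above all PBS libraries, by 0.34 ± 0.04 (adjusted p = 4.90e-05) and 0.49 ± 0.04 (adjusted p = 3.17e-06) on the log2 FPKM scale, under the 1.5-fold limit, and by 1.11 and 1.16 by edgeR, which called both. In RAW264.7 the libraries labelled knockout held more: 24.8, 41.6 and 42.6 FPKM against 21.6, 21.2 and 20.7 with PBS, and 73.6, 71.5 and 69.1 against 27.5, 26.3 and 27.5 with LPS. With LPS the groups lay far apart (1.39 ± 0.18, adjusted p = 6.60e-04).

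With PBS the higher Cd180 of the RAW264.7 libraries labelled knockout was called (0.73 ± 0.18, adjusted p = 0.0293), but that call was lost in 5 of the 6 fits that left out 1 library of these 2 groups, and held, at 0.99, without the library that stood apart, which was the lowest of its group. LPS raised Cd180 in the libraries labelled knockout by 1.02 ± 0.18 (adjusted p = 0.00163) by limma. Without that library the rise was 0.76 by limma and 1.00 by edgeR. In wild type the limma log2 difference was 0.35 ± 0.18 (adjusted p = 0.217), not called on the FPKM scale. The interaction was 0.66 ± 0.25 by limma (adjusted p = 0.357), not called. Without the library that stood apart it was 0.41 (limma adjusted p = 0.00936), past the adjusted p but under 1.5-fold. Between genotypes the BMDM libraries went the other way with PBS, at -0.22 ± 0.04 (adjusted p = 0.0152), less than 1.5-fold. Mast4 overlaps Cd180 on the opposite strand, and in RAW264.7 it was at 0.17 to 0.19 FPKM in wild type and 0.26 to 0.85 with the knockout label with PBS, and 0.25 to 0.31 and 1.37 to 1.49 with LPS, without overlap between the labels. Shared reads were not tested.

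**Figure D2:**
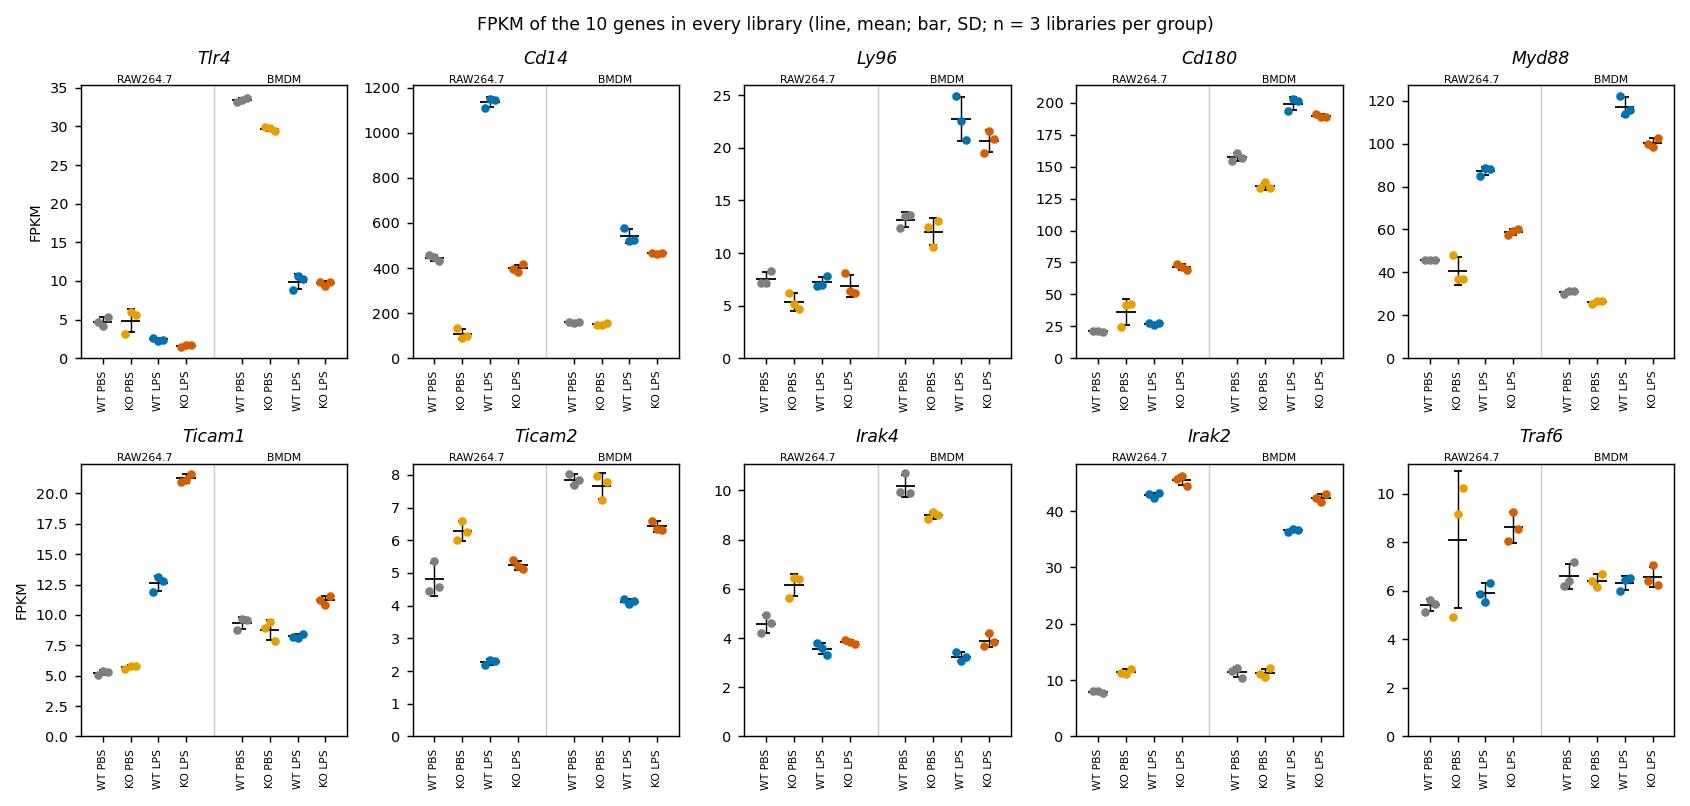
FPKM (vertical axes, each from 0) of the 10 genes in each of the 24 libraries, by group, with RAW264.7 left and BMDMs right of the grey line in each panel, a line at the group mean and a bar for the SD (n = 3). KO stands for the knockout label. RAW264.7 Cd14 was between 90.4 and 135 in the libraries labelled knockout with PBS against 429.8 to 457 in wild type, and the RAW264.7 group labelled knockout with PBS had the widest spread in Tlr4, Cd180, Myd88 and Traf6.

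Myd88 encodes the adaptor that TLR4 uses at the plasma membrane (chr9:119335934-119341411, minus strand). In BMDMs, Myd88 was at 30.1, 31.3 and 31.5 FPKM in wild type with PBS and 122, 114 and 116 with LPS. In knockout BMDMs, Myd88 was at 25.5, 26.7 and 26.5 and 99.7, 98.5 and 103. It rose by nearly the same amount in both, 1.92 ± 0.05 (adjusted p = 4.46e-10) and 1.93 ± 0.05 (adjusted p = 4.41e-10) by limma (edgeR 2.69 and 2.61), and the interaction was 0.01 with a 95% interval of -0.14 to 0.16. The knockout BMDM libraries were below all wild-type libraries with PBS and with LPS, at -0.24 ± 0.05 (adjusted p = 0.0213) and -0.22 ± 0.05 (adjusted p = 0.00884), which passed the adjusted p but not the 1.5-fold limit.

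In RAW264.7, wild-type Myd88 was at 45.9, 45.8 and 45.95 FPKM with PBS and 85.1, 88.6 and 88.4 with LPS. In the libraries labelled knockout it was at 47.9, 36.8 and 36.7 and 57.2, 59.2 and 60.2. The wild-type rise was called (0.93 ± 0.10, adjusted p = 9.52e-05), and the difference in the libraries labelled knockout (0.55 ± 0.10, adjusted p = 0.00249) fell short of 1.5-fold by limma, passed by edgeR (0.78) and passed by limma without the library that stood apart (0.68). With LPS all libraries labelled knockout were below all wild-type libraries (-0.57 ± 0.10, adjusted p = 0.00453), a difference also just under 1.5-fold by limma and past it by edgeR (-0.60). Acaa1a overlaps Myd88 on the opposite strand, and in these RAW264.7 groups it ran from 53.1 to 56.6 FPKM in wild type with PBS, 36.2 to 55.6 with the knockout label, 28.7 to 30.7 in wild type with LPS and 13.8 to 14.1 with both. Slc22a14, on the same strand, was at or under 0.07 FPKM in every library. Whether counting used strand was not stated, and shared reads were not tested.

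Ticam1 encodes TRIF, the adaptor of the interferon arm (chr17:56269319-56276786, minus strand). In RAW264.7 it was at 5.03, 5.4 and 5.31 FPKM in wild type with PBS and 11.9, 13.1 and 12.8 with LPS. In the libraries labelled knockout it was at 5.54, 5.82 and 5.81 and 20.96, 21.1 and 21.6. All 4 groups were apart, and the 2 groups with LPS lay highest. The log2 rise with LPS was 1.25 ± 0.07 (adjusted p = 7.97e-07) in wild type and 1.87 ± 0.07 (adjusted p = 3.72e-08) in the libraries labelled knockout (edgeR 1.49 and 2.13), and the difference between these rises was itself called (0.62 ± 0.10, adjusted p = 0.011), at 0.60 without the library that stood apart. With LPS the libraries labelled knockout held 0.75 ± 0.07 (adjusted p = 9.66e-05) more on the log2 scale.

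In BMDMs, Ticam1 was at 8.77, 9.7 and 9.59 FPKM in wild type with PBS and 8.21, 8.07 and 8.43 with LPS. In knockout BMDMs it was at 8.96, 9.41 and 7.82 and 11.2, 10.8 and 11.6. The direction in wild type hung on the scale, at -0.18 by limma on FPKM (adjusted p = 0.0658) and 0.59 by edgeR (adjusted p = 2.35e-09). In knockout it was 0.36 ± 0.07 (adjusted p = 0.00192), not 1.5-fold, and 1.02 by edgeR. With LPS all knockout libraries were above all wild-type libraries, at 0.44 ± 0.07 (adjusted p = 0.00265) by limma and 0.30 by edgeR, not 1.5-fold on either scale.

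Ticam2 encodes TRAM, which bridges TLR4 and TRIF at endosomes. In RAW264.7, Ticam2 was at 4.45, 5.38 and 4.58 FPKM in wild type with PBS and 2.18, 2.34 and 2.3 with LPS. In the libraries labelled knockout, Ticam2 was at 6, 6.59 and 6.26 and 5.39, 5.2 and 5.12. It fell in wild type (-1.04 ± 0.09, adjusted p = 1.33e-05, edgeR -0.86) and was not called in the libraries labelled knockout (-0.26 ± 0.09, adjusted p = 0.0527, edgeR -0.03). The difference between these responses was called (0.78 ± 0.12, adjusted p = 0.0109), at 0.75 without the library that stood apart. With LPS the libraries labelled knockout were higher by 1.17 ± 0.09 (adjusted p = 2.49e-05), a 2.304-fold difference in mean FPKM.

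In BMDMs too, Ticam2 in FPKM fell with LPS in wild type and was then higher in the knockout. In RAW264.7 the libraries labelled knockout were above wild type with PBS already, and Olfml3 went against the label there. Wild-type BMDM libraries were at 8.02, 7.68 and 7.84 with PBS and 4.19, 4.05 and 4.14 with LPS. Knockout libraries were at 7.98, 7.22 and 7.77 and 6.6, 6.36 and 6.31. The genotypes overlapped with PBS and were apart with LPS, where the knockout was higher by 0.63 ± 0.05 (adjusted p = 4.92e-05), the single call of the 10 genes between BMDM genotypes. The interaction was called too (0.66 ± 0.07, adjusted p = 6.69e-04). By edgeR both stayed past the adjusted p but not past 1.5-fold, at 0.50 (adjusted p = 2.18e-08) and 0.57 (adjusted p = 9.40e-07). The fall in wild type (-0.91 ± 0.05, adjusted p = 9.84e-08) was -0.15 by edgeR, and in knockout the limma value of -0.25 turned to 0.42 by edgeR. Tmed7 overlaps Ticam2 on the same strand and was counted separately. Tmed7 ranged from 18.1 to 20.95 FPKM over all RAW264.7 libraries and from 21.3 to 26.7 over all BMDM libraries, and whether it shared reads with Ticam2 was not tested.

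Irak4 encodes the kinase that MyD88 recruits first (chr15:94543643-94581815, plus strand). In BMDMs, Irak4 was at 9.93, 10.7 and 9.9 FPKM in wild type with PBS and 3.44, 3.06 and 3.23 with LPS. In knockout BMDMs, Irak4 was at 8.85, 9.13 and 8.98 and 3.68, 4.19 and 3.82. It fell in both, with all LPS libraries below all PBS libraries, at log2 fold changes of -1.62 ± 0.06 (adjusted p = 1.08e-08) and -1.19 ± 0.06 (adjusted p = 1.18e-07) by limma, and of -0.88 and -0.53 by edgeR, the last of which was past the adjusted p and under 1.5-fold. The genotype difference was -0.18 with PBS and 0.26 with LPS on the log2 FPKM scale, and the interaction passed the adjusted p (0.43 ± 0.09, adjusted p = 0.0223) without reaching 1.5-fold.

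In RAW264.7, Irak4 was at 4.21, 4.92 and 4.61 FPKM in wild type with PBS and 3.78, 3.59 and 3.33 with LPS. In the libraries labelled knockout it was at 5.64, 6.42 and 6.41 and 3.9, 3.84 and 3.76. LPS libraries were below PBS libraries in both. The fall was called by limma in the libraries labelled knockout (-0.67 ± 0.09, adjusted p = 2.73e-04, -0.73 without the library that stood apart, edgeR -0.45 and not called), and the wild-type value was -0.35 ± 0.09 (adjusted p = 0.0161), not 1.5-fold. With PBS every library labelled knockout was above every wild-type library, at 0.42 ± 0.09 (adjusted p = 0.017), and with LPS they overlapped. Twf1 overlaps Irak4 on the opposite strand and stayed within 19.2 to 23.6 FPKM in the cell line and 33.9 to 45.6 in BMDMs. Shared reads were not tested.

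Irak2 encodes the kinase that joins IRAK4 in the MyD88 assembly and sustains the response (chr6:113638467-113695026, plus strand), and of the 10 genes it rose most in wild-type RAW264.7 on both scales. Wild-type RAW264.7 libraries were at 8.15, 8.02 and 7.69 FPKM with PBS and 43.01, 42.3 and 43.2 with LPS. Libraries labelled knockout were at 11.2, 11.1 and 12 and 45.8, 46.3 and 44.5. The log2 rise was 2.41 ± 0.07 (adjusted p = 7.50e-09) in wild type and 1.98 ± 0.07 (adjusted p = 1.93e-08) in the libraries labelled knockout (edgeR 2.65 and 2.23). In the latter it was 1.97 without the library that stood apart, where Cd14 was at 2.09. The interaction was -0.43 ± 0.09 (adjusted p = 0.0517), not called, and -0.44 (limma adjusted p = 0.00804) without the library that stood apart, under 1.5-fold in both. With PBS every library labelled knockout was above wild type (0.52 ± 0.07, adjusted p = 9.64e-04, a 1.44-fold difference in mean FPKM that missed the 1.5-fold limit). With LPS the difference was 0.09 ± 0.07 (adjusted p = 0.39).

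In BMDMs, Irak2 was at 11.7, 12.1 and 10.4 FPKM in wild type with PBS and 36.3, 36.8 and 36.7 with LPS. In knockout BMDMs it was at 11.1, 10.6 and 12.1 and 42.4, 41.6 and 43.01. It rose by 1.68 ± 0.07 (adjusted p = 1.19e-08) and 1.90 ± 0.07 (adjusted p = 5.83e-09) (edgeR 2.46 and 2.58). The genotypes overlapped with PBS, and with LPS the 3 knockout libraries were above the 3 wild-type libraries by 0.21 ± 0.07 (adjusted p = 0.063), not called, with an edgeR value of 0.07. Of the genes that overlap Irak2, Gm43912 on the same strand was higher with LPS, at 0.28 to 0.97 FPKM with PBS and 4.42 to 5.81 with LPS in wild-type RAW264.7, and at 0.34 to 0.67 and 1.35 to 2.07 in wild-type BMDMs. Gm43963 and Gm43964 on the opposite strand were at or under 2.17 FPKM in every library. Shared reads were not tested.

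Traf6 encodes the ubiquitin ligase that passes the signal to TAK1 and the IKK kinases (chr2:101678429-101701669, plus strand), and in BMDMs its FPKM moved least with LPS. Traf6 was at 6.2 to 7.18 FPKM in wild-type BMDMs with PBS, 5.99 to 6.54 with LPS, 6.17 to 6.68 in knockout with PBS and 6.25 to 7.05 with LPS, so that all 4 groups overlapped. The log2 difference with LPS was -0.06 in wild type and 0.03 in knockout on FPKM, with 95% intervals of -0.22 to 0.10 and -0.13 to 0.19. By edgeR it was called higher in both (0.71 and 0.71). In RAW264.7, Traf6 was at 5.14, 5.62 and 5.46 in wild type with PBS and 5.85, 5.54 and 6.33 with LPS, and at 4.91, 9.17 and 10.2 and 8.03, 9.26 and 8.53 in the libraries labelled knockout. The low first value of that series is the library that stood apart. With it the PBS difference was 0.51 ± 0.23 (adjusted p = 0.169), and without it 0.83 (limma adjusted p = 1.14e-04), which was called. With LPS against PBS no RAW264.7 difference was called (0.12 ± 0.23, adjusted p = 0.819 in wild type and 0.15 ± 0.23, adjusted p = 0.699 with the knockout label, edgeR 0.35 and 0.32), and without that library the second was -0.17.

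The start regions of the genes that moved with LPS in the same libraries were read from RefSeq (GRCm38.p6) to show what they hold, each as 250 bases before and 50 after the start, 5′ to 3′ on the strand of the gene. Windows were read for 6 of the 10 genes. None was found for Tlr4 and Ly96, and Cd14 and Ticam2 were left out of the search. Of the 6, 4 are shown: Irak2 (chr6:113638217-113638516, plus strand) and Myd88 (chr9:119339969-119340268, minus strand), which rose in wild-type cells of both kinds, Ticam1 (chr17:56276718-56277017, minus strand), whose response differed with the RAW264.7 label, and Irak4 (chr15:94543410-94543709, plus strand), which fell in BMDMs. Capitals mark matches on either strand to GAAA followed after any 2 bases by GAAA (the core of the interferon response element), to TATAAA (the TATA box) and to GGGCGG (the GC box).
Irak2: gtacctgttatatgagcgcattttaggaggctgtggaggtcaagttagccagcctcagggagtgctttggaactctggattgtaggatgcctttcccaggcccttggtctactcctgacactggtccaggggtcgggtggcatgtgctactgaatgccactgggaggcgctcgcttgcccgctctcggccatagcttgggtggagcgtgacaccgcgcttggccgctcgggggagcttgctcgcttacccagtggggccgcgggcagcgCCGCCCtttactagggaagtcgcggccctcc
Myd88: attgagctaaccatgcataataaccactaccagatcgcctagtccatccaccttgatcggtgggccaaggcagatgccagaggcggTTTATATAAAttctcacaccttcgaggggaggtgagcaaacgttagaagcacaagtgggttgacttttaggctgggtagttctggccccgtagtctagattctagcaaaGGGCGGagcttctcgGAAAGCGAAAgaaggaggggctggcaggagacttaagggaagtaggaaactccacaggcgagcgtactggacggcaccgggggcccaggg
Ticam1: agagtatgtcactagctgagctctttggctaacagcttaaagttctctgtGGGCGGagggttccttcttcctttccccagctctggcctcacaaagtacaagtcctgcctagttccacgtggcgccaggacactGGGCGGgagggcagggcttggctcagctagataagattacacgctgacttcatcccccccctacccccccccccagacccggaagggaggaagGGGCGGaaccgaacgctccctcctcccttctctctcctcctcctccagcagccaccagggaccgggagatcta
Irak4: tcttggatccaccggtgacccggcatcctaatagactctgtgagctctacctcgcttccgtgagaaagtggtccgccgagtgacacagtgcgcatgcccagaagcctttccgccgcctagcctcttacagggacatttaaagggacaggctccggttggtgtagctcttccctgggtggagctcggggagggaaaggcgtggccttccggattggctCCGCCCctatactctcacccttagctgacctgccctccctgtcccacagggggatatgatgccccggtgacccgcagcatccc
The Myd88 window holds GAAAGCGAAA with its first base 40 bases before the start, and 3.44% of all 32851 RefSeq windows of this length hold such a match. It also holds overlapping TATAAA matches on both strands near base -160 (13.6% of windows hold one) and a GC box. Irak2 and Irak4 hold 1 GC box each and Ticam1 holds 3, against 35.7% of windows with at least 1. The NF-kappaB consensus was also searched on both strands: it is in 4.51% of windows and in none of the 6, which says only that these letters are not in these stretches. GC content was 62.3% for Irak2, 61% for Irak4, 60% for Ticam1 and 54% for Myd88, beside a median of 52.7% over all windows. A match describes letters and is no evidence of binding.

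Between genotypes, Cd14 was lower and Cd180 higher in the RAW264.7 libraries labelled knockout with either treatment, and Ticam1 and Ticam2 were higher there with LPS. The median log2 difference of the 10 genes in RAW264.7 was 0.25 with PBS and 0.10 with LPS, and in BMDMs -0.12 and 0.01, beside 0.02, 0.00, 0.01 and 0.04 over all genes tested. In RAW264.7 with PBS 2 of 10 were called, Cd180 higher and Cd14 lower in the libraries labelled knockout, beside 4.79% of all genes called higher and 3.77% lower. Without the library that stood apart 4 were called, Traf6 and Cd180 higher and Cd14 and Ly96 lower, and no share over all genes was worked out for that fit. With LPS 4 of 10 were called (Ticam1, Ticam2 and Cd180 higher and Cd14 lower) beside 9.73% higher and 7.60% lower over all genes. By edgeR Tlr4 and Myd88 were called lower as well, where it called 4498 of 13639 genes, 52.0% of them higher. In BMDMs with PBS limma called 0 of 10, where 0.901% of genes were called higher and 0.905% lower. By edgeR 0 of the 10 were called, where it called 530 of 14057 genes. At an unadjusted limma p under 0.05 there were 4 (Tlr4, Myd88, Irak4 and Cd180, all lower in the knockout). No share over all genes was worked out at that threshold, so the shares above cannot be set beside it. With LPS 1 of 10 was called (Ticam2 higher), beside 3.23% higher and 1.53% lower. Here edgeR scaling moved the median gene by -0.14, and 67.9% of all called genes were higher in the knockout on FPKM and 49.4% by edgeR. For the 9 not called with LPS the limma 95% intervals of the log2 difference lay between -0.35 and 0.60.

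The interaction, which compares the LPS response between the knockout label and wild type, was called for Ticam1 and Ticam2 in RAW264.7, beside 1.95% of all genes in either direction, and for Ticam2 in BMDMs, beside 2.91%. The RAW264.7 values belong to libraries labelled knockout, in which Olfml3 was higher than in wild type, so they are set beside the BMDM value and not pooled with it. Without the RAW264.7 library that stood apart 4 were called there, with Cd14 at 0.74 (limma adjusted p = 0.000984) and Tlr4 at -0.84 (limma adjusted p = 0.015) added. That fit has no share over all genes worked out. The tables of the cell types were normalized separately, so no test was made between them. With 3 libraries against 3 an exact permutation test of a single gene cannot go below p = 0.1, so the tests given are those fitted over all genes.

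**Figure D3:**
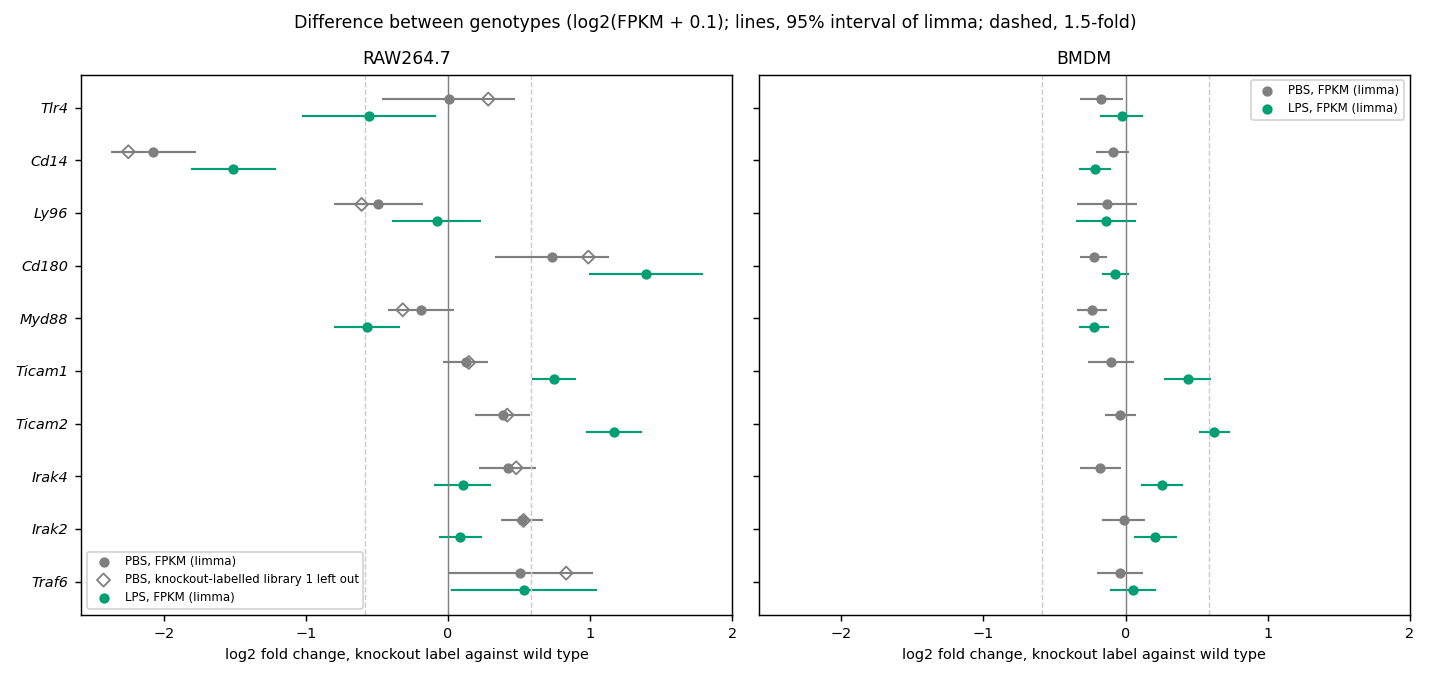
Log2 difference between the knockout label and wild type on log2(FPKM + 0.1) (horizontal axis, same range in both panels) for each of the 10 genes with PBS (grey) and with LPS (green), with limma 95% intervals and 3 libraries per group. Open diamonds leave out the RAW264.7 library that stood apart. RAW264.7 Cd14 lay at -2.07 and -1.51 and Cd180 at 0.73 and 1.39, while the BMDM values lay between -0.24 and 0.63.

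Ratios of 2 genes within a library do not depend on how libraries are scaled. They describe RNA levels relative to each other and not the make-up of the protein complex, which was not measured in these libraries. In wild-type BMDMs the ratio of Cd14 to Tlr4 in FPKM was 4.69 to 4.87 with PBS and 48.98 to 65.5 with LPS, and in knockout 4.92 to 5.27 and 47.4 to 49.4. In RAW264.7 it was 81.6 to 109 and 428 to 505 in wild type and 15.2 to 42.6 and 228 to 268 with the knockout label. The ratio was higher in the cell line and rose above its PBS range with LPS in every group. Ly96 to Tlr4 was below 1 in every BMDM library with PBS and above 1 in every BMDM library with LPS. It was 0.372 to 0.406 and 2.03 to 2.83 in wild type, and 0.356 to 0.443 and 1.99 to 2.302 in knockout. The ratio of Cd180 to Tlr4 was close in the 2 wild types with PBS, 3.92 to 5.15 in RAW264.7 and 4.65 to 4.81 in BMDMs, and reached 40.6 to 49.7 in LPS libraries of RAW264.7 labelled knockout, where the wild type was at 10.6 to 11.5.

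Downstream, Irak2 to Irak4 was 1.63 to 1.94 in wild-type RAW264.7 and 1.05 to 1.18 in wild-type BMDMs with PBS, and with LPS it lay between 9.92 and 12.96 in all 4 groups, genotypes and cell types overlapping. The RNA ratio of Myd88 to Ticam1, an adaptor of each arm, moved in opposite directions with LPS in the 2 cell types. It was 3.22 to 3.43 in wild-type BMDMs with PBS and 13.7 to 14.9 with LPS, and in knockout BMDMs 2.84 to 3.39 and 8.89 to 9.1. In RAW264.7 it was lower with LPS, at 8.49 to 9.12 with PBS and 6.76 to 7.14 with LPS in wild type, and at 6.32 to 8.65 and 2.73 to 2.81 with the knockout label. With LPS, the knockout BMDM libraries and the RAW264.7 libraries labelled knockout had less Myd88 per Ticam1 than their wild types, with no overlap. These ratios were not tested.

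**Figure D4:**
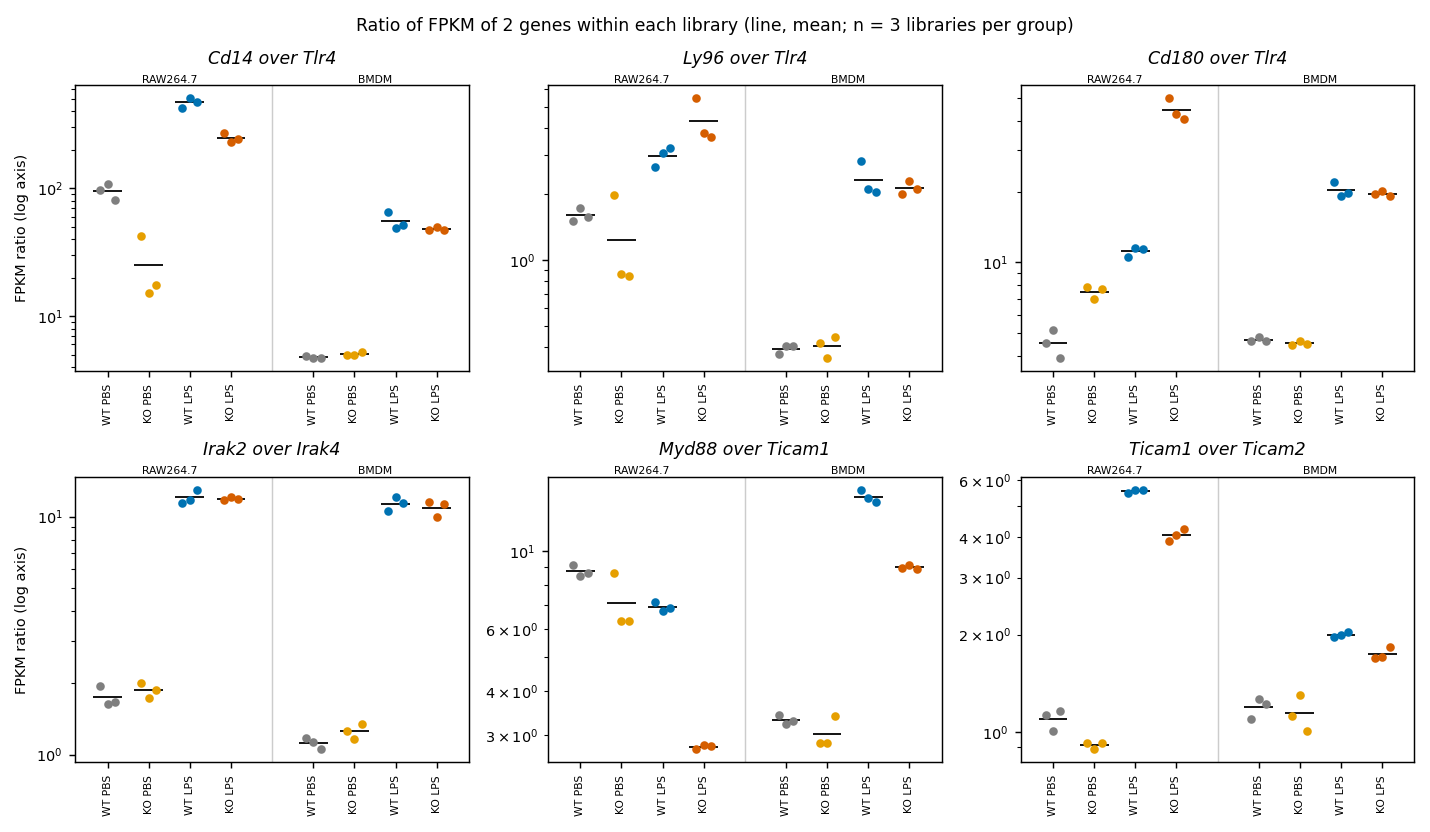
Ratio of the FPKM of 2 genes within each library (vertical axes, log scale) by group, with the group mean as a line and 3 libraries per group; KO stands for the knockout label. Irak2 over Irak4 was between 9.92 and 12.96 in every LPS library, and Myd88 over Ticam1 with LPS was lower with the knockout label than in wild type in both cell types, though Olfml3 went against that label in RAW264.7.

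Side by side and without a test, the resting wild types differed most in Tlr4, at 33.5 FPKM on average in BMDMs and 4.71 in RAW264.7 (ratio 7.10), and in Cd180, at 157 and 21.2 (ratio 7.43). Cd14 was the reverse, at 159 and 445 (ratio 0.358). The intracellular genes lay closer, with ratios of 0.674 for Myd88, 1.22 for Traf6, 1.43 for Irak2, 1.63 for Ticam2, 1.78 for Ticam1 and 2.22 for Irak4, and Ly96 at 1.75. After LPS the wild types were at 36.6 (BMDM) and 42.8 (RAW264.7) for Irak2 and at 3.24 and 3.57 for Irak4. Values set across the tables carry the separate normalization.

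Of 28 other genes of the pathway, 27 passed the filter on low values in RAW264.7 and 28 in BMDMs. With LPS in wild-type BMDMs 5 of 28 were called higher and 12 lower, beside 7.94% and 32.5% of all genes. By edgeR 10 of 27 were higher and 4 lower, beside 25.1% and 30.9%. The 5 largest named by rule were Peli1, a ubiquitin ligase of IRAK and TRAF6 assemblies (3.02 ± 0.05, adjusted p = 6.69e-11), Ikbke, the interferon-arm kinase IKK-epsilon (1.5 ± 0.05, adjusted p = 3.61e-09), and Tifa, a TRAF6-binding adaptor (1.22 ± 0.05, adjusted p = 2.14e-08), which rose, and the TAK1 partner Tab1 (-1.89 ± 0.10, adjusted p = 6.64e-08) and the TLR chaperone Cnpy3 (-1.59 ± 0.08, adjusted p = 5.21e-08), which fell. These 5 kept their direction by edgeR (3.81, 2.28, 1.99, -1.19 and -0.82). In knockout BMDMs 8 of 28 were called higher and 9 lower, beside 8.02% and 30.9% of all genes. By edgeR 9 of 27 were higher and 4 lower, beside 23.9% and 29.6%. Among those lower by limma was Il1rl1, the IL-33 receptor ST2, at -2.75 ± 0.16 (adjusted p = 1.85e-07). In wild-type RAW264.7 7 of 27 were higher and 4 lower, beside 5.80% and 12.5% of all genes. The changes were led by Ikbke (5.16 ± 0.07, adjusted p = 2.38e-10) and Peli1 (3.89 ± 0.13, adjusted p = 3.11e-08), with the inhibitors Irak3 (1.37 ± 0.18, adjusted p = 3.05e-04) higher and Sigirr (-1.77 ± 0.17, adjusted p = 3.74e-05) lower. In the libraries labelled knockout 7 of 27 were higher and 7 lower, beside 7.45% and 14.6% of all genes. Ikbke was at 6.57 ± 0.07 (adjusted p = 3.22e-11) there, a response past that of wild type (interaction 1.41 ± 0.10, adjusted p = 1.46e-04).

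Between genotypes 2 of the 27 genes of the list were higher and 4 lower in RAW264.7 with PBS, beside 4.79% and 3.77% of all genes. With LPS 6 were higher and 2 lower, beside 9.73% and 7.60%. With PBS the counts were 6 higher and 4 lower without the library that stood apart, and 0 higher and 3 lower when only the groups compared were fitted. No share over all genes was worked out for those fits. Tirap, the adaptor that brings MyD88 to TLR4, was higher in the libraries labelled knockout, by 1.29 ± 0.22 (adjusted p = 0.00584) and 1.42 ± 0.22 (adjusted p = 0.00206), as was the kinase Syk, by 0.99 ± 0.14 (adjusted p = 0.00185) and 1.03 ± 0.14 (adjusted p = 9.43e-04). Irak3, which encodes the inhibitor IRAK-M, was lower there, at -1.70 ± 0.18 (adjusted p = 3.00e-04) and -1.20 ± 0.18 (adjusted p = 0.00167). With PBS these calls of Tirap, Syk and Irak3 held in each fit that left out 1 library. The values ran from 1.11 to 1.60 for Tirap, 0.90 to 1.16 for Syk and -1.81 to -1.50 for Irak3. In BMDMs limma called 0 of 28 with PBS, beside 0.901% of all genes higher and 0.905% lower, and edgeR called 0. At an unadjusted limma p under 0.05 there were 5, a threshold for which no share over all genes was worked out. With LPS limma called 1 higher and 2 lower, beside 3.23% and 1.53%. Irak3 was higher in the knockout (1.13 ± 0.06, adjusted p = 1.08e-05), the opposite of RAW264.7, and Ly86, the MD-1 partner of CD180 (-0.73 ± 0.06, adjusted p = 4.31e-05), and the kinase Ripk1 (-0.61 ± 0.05, adjusted p = 4.14e-05) were lower. The ratio of Cd180 to Ly86 was accordingly 5.49 to 6.44 in wild-type and 9.33 to 10.01 in knockout BMDMs with LPS, and 0.996 to 1.095 and 3.3 to 3.68 in RAW264.7.

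The genes whose pattern was most like each member were taken as the 3 with the highest Pearson correlation of log2(FPKM + 0.1), centred within each cell type, over the 24 libraries and 9472 genes with a mean of at least 1 FPKM in both. The libraries of a group share treatment, genotype and scaling, so these values describe likeness only. For Tlr4 they were Plekhb2, P2rx7 and Tlr13 (r 0.98 each), and for Cd14 Mt2, Hspa5 and Milr1 (r 0.97 to 0.98). For Ly96 they were Caml, Psme2b and Psme2 (r 0.91 to 0.92), where Psme2 and Psme2b encode near-identical proteasome activator copies, and for Cd180 Tmem131, Gm38357 and Tbl1x (r 0.97 to 0.98). Myd88 went with Snx10, Marchf5 and Mlkl (r 0.99 each), and Irak2 with Nlrp3, Nfkb1 and Pde4b (r 0.99 each), of which Nlrp3 encodes the inflammasome sensor and Nfkb1 a subunit of NF-kappaB. Ticam1 went with Bcl2l11, Jade2 and Pip5k1a (r 0.97 to 0.98), and Ticam2 with Tmem268, Nacc1 and Ppp1r9b (r 0.92 to 0.93). Irak4 went with Phf14, Tmem260 and Ccar2 (r 0.99 each), and Traf6 with Usp9x, Garre1 and Mycbp2 (r 0.94 to 0.96). Among the 10 genes themselves, Irak4 ran opposite to Myd88 (r -0.96) and Tlr4 opposite to Irak2 (r -0.92), and the highest positive value was Tlr4 with Irak4 (r 0.89).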

How the data were processed

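Total RNA of 24 libraries was sequenced after poly(A) selection as paired reads of 150 bases. The authors deposited a fragment count and an FPKM for each of 56691 genes in every library, one file for RAW264.7 and another for BMDM, and FPKM recomputed from the counts and gene lengths lay within 1% for 99.9% (RAW264.7) and 99.5% (BMDM) of values over 50 counts. The aligner, counter and any use of strand in counting: not given in the sources used here. Per the labels, the build was mm10, but the tables' gene starts and ends match GENCODE release 21 of the mouse genome for 1472 of 52073 genes held by both, so gene positions are those of that release (GRCm38), looked up by gene ID.

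Groups were taken from sample titles, and a genotype tag contradicts the title in 12 libraries. Olfml3 went with the titles in BMDMs and against them in RAW264.7. Both genotype labels of RAW264.7, wild type included, were therefore taken from the titles alone. The study reports Sanger sequencing of its clones, but which edits these libraries carry was not tested here. The test and call rule followed the study's methods where given: log2(FPKM + 0.1) was tested with limma 3.58.1 in R 4.3.3, 1 fit per cell type over its 4 groups with 8 residual degrees of freedom, on genes above 0 in any library (26740 in RAW264.7, 26973 in BMDM), with Benjamini-Hochberg adjusted p-values, two-sided. A gene was called where the adjusted p was below 0.05 and the groups differed by at least 1.5-fold. The pseudocount shrinks changes of low genes. Counts were tested with edgeR 4.0.16 (quasi-likelihood test, trimmed-mean scaling, 13639 and 14057 genes after its filter) and DESeq2 1.42.0 as alternatives, beside other pseudocounts, filters, scalings and samples. On simulated counts for knockout against wild type with PBS, limma recovered 94% of 2-fold and 100% of 4-fold changes in RAW264.7 (25608 genes, 11 false calls) and 95% and 100% in BMDM (25903 genes, 15 false calls). The simulation gave all genes the same fixed dispersion, changed only genes of high count and held no library that stood apart. These shares therefore check the code and do not give the power in these data.

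The members, the pathway list and the marker lists were chosen with earlier results of these data known. Named from the pathway list were the 5 called genes of largest change per comparison with a mean of at least 1 FPKM in either group, of which some are given, Olfml3, Tnf, Il1b, Il6 and Nos2 as checks, and genes that overlap a member in the tables.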

Additional observations from a re-analysis of the deposited data

Results flagged for a closer look

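Values stood out in 2 ways. First, the effect of the knockout label differed between LPS and PBS by the interaction term of limma, on the log2 FPKM scale. In RAW264.7 the interaction was 0.62 for Ticam1, 0.78 for Ticam2 and 1.41 for Ikbke, and in BMDMs it was 0.66 for Ticam2 and 1.26 for Irak3. Each had 3 libraries in each of 4 groups, and the RAW264.7 libraries labelled knockout include the PBS library that stood apart.

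Second, every library of one cell type lay on one side of its comparison group and every library of the other cell type on the opposite side. Between the tables the difference was not tested. Cd180 in knockout against wild type with PBS was at 0.73 in RAW264.7 and -0.22 in BMDMs, and with LPS at 1.39 and -0.072. Ticam1 with LPS against PBS in wild type was at 1.25 in RAW264.7 and -0.18 in BMDMs, and the BMDM sign turned to positive by edgeR. Irak4 in knockout against wild type with PBS was at 0.42 in RAW264.7 and -0.18 in BMDMs. Irak3 in knockout against wild type with LPS was at -1.20 in RAW264.7 and 1.13 in BMDMs. In RAW264.7 Olfml3 went against the label, so these directions belong to libraries labelled knockout.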

How the results depend on the processing

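Of 2160 alternative values for the 10 genes, 2025 stayed on their side of the threshold, 39 no longer passed it, 80 newly passed it and 16 reversed, and in 55 the sign changed where neither value passed the adjusted p. All reversals but one came with another scaling of the libraries. In wild-type BMDMs, Ticam1 with LPS was at 0.62 by median-ratio scaling, 0.36 by quantile normalization, 0.59 by edgeR, 0.53 by edgeR with no filter and 0.62 by DESeq2, and Traf6 at 0.73, 0.60, 0.71, 0.65 and 0.74. In knockout BMDMs, Ticam2 with LPS was at 0.43, 0.31, 0.42, 0.36 and 0.44 in that order. The other was the RAW264.7 interaction of Traf6, at -0.28 by edgeR without the library that stood apart. That fit and the median-ratio fit without this library were chosen after seeing the data, and each called 4 genes for RAW264.7 knockout against wild type with PBS and 4 for the interaction, as did limma without it. Shares over all genes were not worked out for these fits.

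For RAW264.7 with PBS (2 called), TPM gave 4, only the groups compared 1, the replicate block 1, the adjusted p alone 6, and leaving out 1 library 1 to 4. TPM scaling moved the share of called genes that were higher from 56.0% to 68.9% with PBS and from 56.1% to 75.0% with LPS. For the RAW264.7 interaction (2 called), a pseudocount of 0.01 gave 1, TPM 0, and leaving out 1 library 1 to 4 (1 without wild-type LPS replicate 1). For BMDMs, the adjusted p alone gave 2 with PBS in place of 0, 5 with LPS in place of 1, and 3 for the interaction in place of 1. A pseudocount of 1, median-ratio scaling, quantile normalization, edgeR, edgeR with no filter and DESeq2 each gave 0 for BMDM knockout against wild type with LPS and 0 for the BMDM interaction. Leaving out 1 library gave 1 to 2 for that interaction (2 without knockout PBS replicate 2). The causes were not tested beyond what each setting changes. The interaction uses all 4 groups, so it could not be fitted on fewer.

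Libraries with the same replicate number did not deviate together: correlations of their deviations ran from -0.058 to 0.084. The replicate block changed the count of members called in no comparison other than RAW264.7 with PBS, where it gave 1. In RAW264.7 the SE did not follow the counts. Ly96, at 68 to 118 counts per library, had a smaller SE than Tlr4, at 96 to 529. Traf6, at 541 to 1159 counts, had a larger SE than both. What set the precision of each gene was not tested.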
